A study of Homo sapiens with 6 samples.

Results

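The GATA factors and their FOG cofactors were followed in RNA-seq of cells derived from the H1 hESC line, a human embryonic stem cell line, at day 8 of hematopoietic differentiation. The family was taken as 8 genes chosen by symbol, GATA1 to GATA6 and the FOG genes ZFPM1 and ZFPM2, out of 58364 rows with values, and each symbol had 1 row. The cells were H1 WT in 2 libraries and H1 with MSX2 knocked out by CRISPR/Cas9 (MSX2-/-) in 4 libraries, which are 2 replicates of each of the clones 1# and 2#. MSX2 encodes a homeobox transcription factor, and the study asked what its loss does to hematopoietic genes in CD31+ cells. All libraries shared the same differentiation in activin A and BMP4 followed by VEGF and bFGF, the labels give no other treatment of either group, and a growth text that also speaks of HAND1 overexpression was given for every library without naming one that carried it. The label of the MSX2-/- cells names CD31+ cells while that of the WT cells names only H1 derived cells, although the paper states CD31+ cells for both. The table numbers the clones 1# and 2# where the labels number them 7 and 10. Each replicate number holds 1 library of WT and of each clone, and the labels mark number 1 and number 2 with different letters without saying what these stand for.

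GATA factors are zinc finger proteins that bind WGATAR motifs in DNA. GATA1, GATA2 and GATA3 are known from blood. GATA2 is known from hemogenic endothelium and stem and progenitor cells, and GATA1 from erythroid, megakaryocyte and mast cells. In erythroid cells GATA1 takes over GATA2 sites in the so-called GATA switch. GATA3 is known from T cells, but also from mesoderm, trophoblast and other tissues. GATA4, GATA5 and GATA6 are known from heart, lateral mesoderm and endoderm. FOG1, the product of ZFPM1, is bound by GATA1 and carries the NuRD corepressor complex to its sites, and FOG2, the product of ZFPM2, is the partner of GATA4 in the heart.

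By symbol in GENCODE release 29 (GRCh38), the 8 genes are all protein coding. The sequence just upstream of the start is shown, where available, for the GATA and FOG genes that were high in the MSX2-/- libraries, because these are the genes that moved together. The promoter table of RefSeq (GRCh38.p14) held 5 of the 8 genes, GATA1, GATA2, GATA3, GATA6 and ZFPM1, with more than 1 start for GATA2 and GATA3. GATA4 and GATA5 were also high but have no window here. Each window shown is written 5′ to 3′ on the strand of its gene, cut before the first base that GENCODE places in an exon. Capitals mark the GC box GGGCGG and the CCAAT box CCAAT on either strand, both common elements of promoters.
GATA1 (plus strand), chrX:48786340-48786553: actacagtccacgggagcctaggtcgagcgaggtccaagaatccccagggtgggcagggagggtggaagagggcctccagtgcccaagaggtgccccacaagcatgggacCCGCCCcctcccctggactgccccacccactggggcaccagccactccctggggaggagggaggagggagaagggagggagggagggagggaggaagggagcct
GATA2 (minus strand), start of the longer transcripts, chr3:128493202-128493451: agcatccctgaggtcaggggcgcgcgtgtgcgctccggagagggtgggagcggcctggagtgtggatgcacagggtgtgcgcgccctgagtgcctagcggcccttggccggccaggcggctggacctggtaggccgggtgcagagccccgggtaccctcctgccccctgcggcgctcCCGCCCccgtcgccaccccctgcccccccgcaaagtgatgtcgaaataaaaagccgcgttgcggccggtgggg
GATA2 (minus strand), start inside the gene, chr3:128488531-128488780: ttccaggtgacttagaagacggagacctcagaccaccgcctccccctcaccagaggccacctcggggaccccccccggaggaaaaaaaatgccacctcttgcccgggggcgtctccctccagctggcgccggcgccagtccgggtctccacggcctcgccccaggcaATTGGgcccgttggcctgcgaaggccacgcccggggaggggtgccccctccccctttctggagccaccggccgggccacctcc
GATA6 (plus strand), chr18:22169339-22169408: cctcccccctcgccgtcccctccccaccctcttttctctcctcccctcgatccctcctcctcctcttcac
ZFPM1 (plus strand), chr16:88453030-88453279: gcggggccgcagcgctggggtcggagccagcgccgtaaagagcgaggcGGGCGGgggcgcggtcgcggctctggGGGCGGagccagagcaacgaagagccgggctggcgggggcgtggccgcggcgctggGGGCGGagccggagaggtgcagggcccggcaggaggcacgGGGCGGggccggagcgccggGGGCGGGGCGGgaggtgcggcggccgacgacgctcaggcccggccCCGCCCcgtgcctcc
In the whole 250 bases before each RefSeq start, the GC box was found in GATA1, in the outer window of GATA2 and at 7 places in ZFPM1, of which 2 overlap. The CCAAT box was found in the inner window of GATA2, which is intronic in the longer transcripts. It was also found in GATA6 beyond the stretch printed, where GENCODE already places the GATA6 gene. The GC box stands in 42.6% and the CCAAT box in 32.0% of 35114 such windows. None of the 5 windows held a GATA motif, searched on both strands as AGATAA or TGATAA or AGATAG or TGATAG, while 22.3% of all windows did. None held the homeobox motif TAATTG on either strand, which stands in 6.70% of all windows. These are matches of letters only and say nothing of what binds there. By ChIP-qPCR, the paper reports binding of MSX2 at the promoters of the regulators of blood emergence that it also measured by real-time PCR. The legend of those measurements names RUNX1, GATA2, TAL1 and GATA1, so both GATA2 and GATA1 of this family are in that set. The paper's text names GATA2 among the genes that real-time PCR found higher after MSX2 deletion.

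Expression was deposited as FPKM, fragments scaled by transcript length and library size, so levels are per length and can be set beside each other. The 6 libraries summed to between 555286 and 617120 FPKM, and the true read depth is unknown, although the relative depth read from the steps of low values ran only from 1.0 to 1.18. Each gene was tested with limma on log2(FPKM + 1) with p-values adjusted by Benjamini-Hochberg over 15895 rows, and log2 fold changes below are on that scale, which understates those of low genes. A gene was called at an adjusted p below 0.05. The study states independent experiments for its analyses in general. Neither the labels nor the methods say whether the sequenced replicates are separate cultures, so p-values may measure only the spread between these samples. The fit also takes each library as a unit, although MSX2 was edited per clone and replicates of a clone add no further clone. An effect of cloning or editing apart from the loss of MSX2 was not tested. MSX2 mRNA was 3.64 and 1.44 FPKM in WT and from 5.62 to 31.8 FPKM in the MSX2-/- libraries, and since small changes in an exon need not lower the mRNA, its level does not check the labels. The 12 endothelial marker genes together were at 3303 and 3904 FPKM in WT and at 2183 to 3352 FPKM in MSX2-/-, with PECAM1, the gene of CD31, at 258 and 218 FPKM against 186 to 230 FPKM.

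Across the family, 6 of 8 genes were higher in every MSX2-/- library than in both WT libraries: GATA1, GATA2, GATA4, GATA5, GATA6 and ZFPM1. Of all rows tested, 12.1% were. Called as higher in MSX2-/- were 3 of the 8, GATA1, GATA2 and GATA5, where 0.963% of all rows were, and none was called as lower. With the replicate number as a block, 6 of the 8 were called as higher, those named above, where 6.11% of all rows were. The median log2 fold change of the 8 was 1.06, beside 0.0081 over all rows tested. GATA3 and ZFPM2 overlapped between the groups. Without the block, leaving out 1 library left 2 of the 3 calls without 2# replicate 1, 1 without 2# replicate 2, and 0 without WT replicate 1, WT replicate 2, 1# replicate 1 or 1# replicate 2, with adjusted p in limma between 0.0655 and 0.157 for GATA1, 0.0407 and 0.123 for GATA2, and 0.0459 and 0.0726 for GATA5. None of the 3 was called when WT, 1# and 2# were fitted as 3 groups (limma, adjusted p = 0.0941 for GATA1 and 0.0717 for GATA2 and for GATA5). In that fit each clone had its own mean, and the libraries remained the units.

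**Figure D1:**
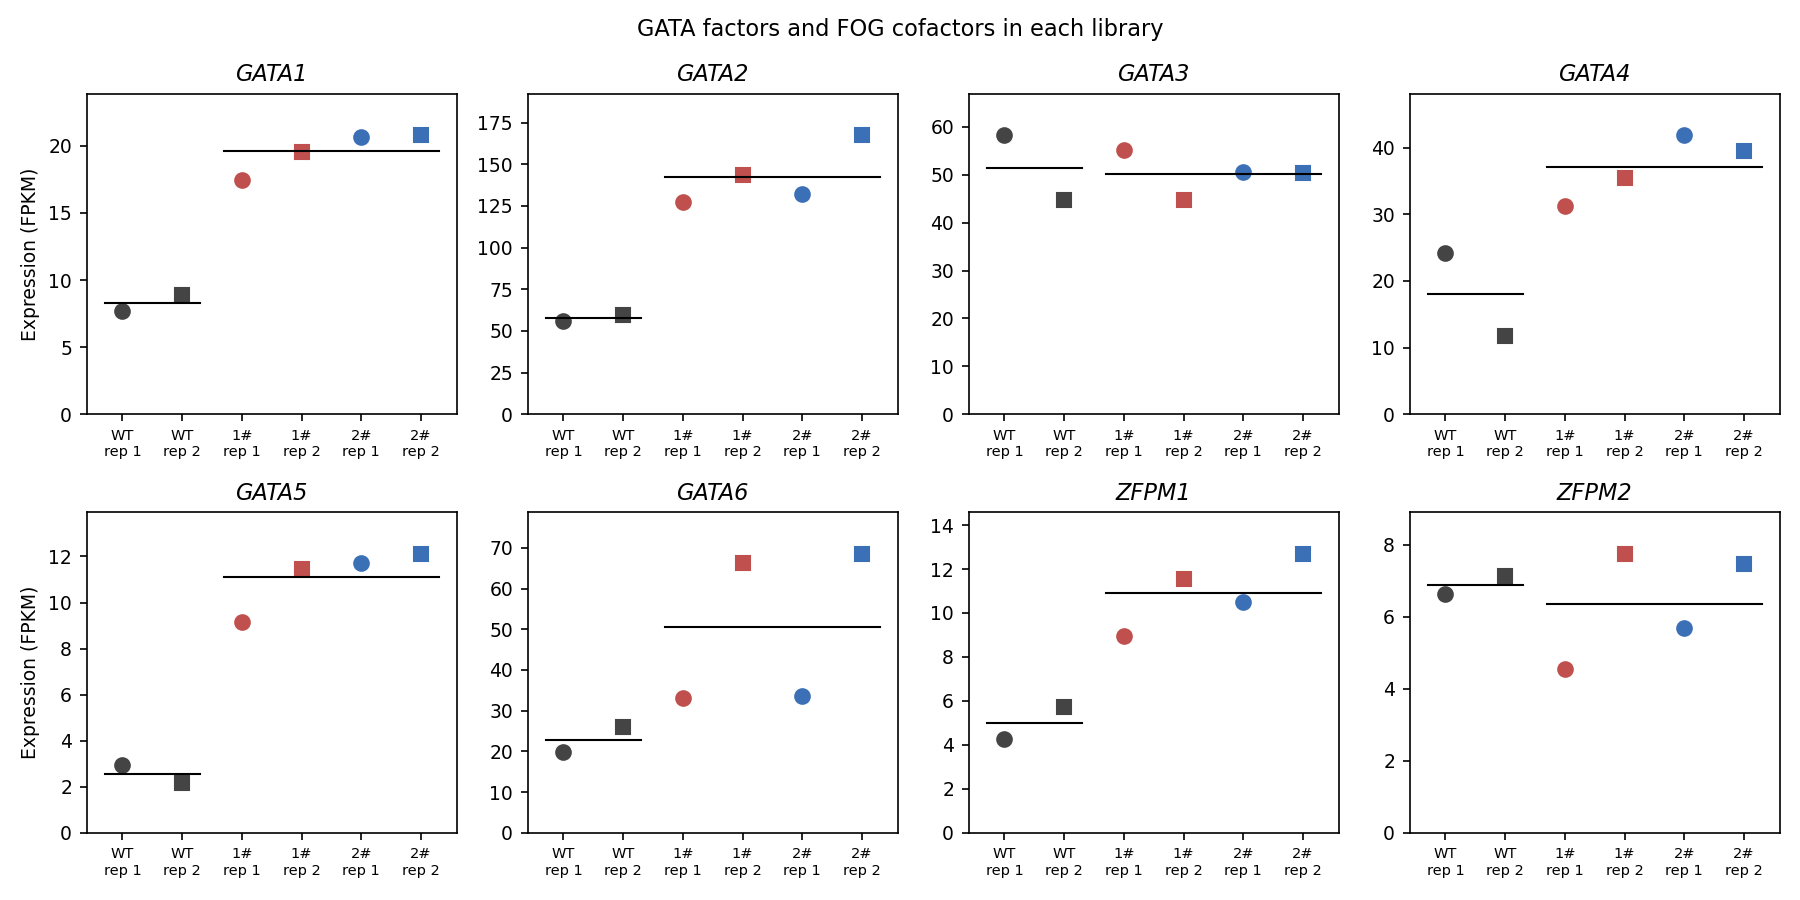
Expression in FPKM on the vertical axis, which starts at 0, of each GATA and FOG gene in the 6 libraries on the horizontal axis, with WT in grey, 1# in red, 2# in blue, circles for replicate 1, squares for replicate 2 and lines for the group means. GATA1, GATA2, GATA4, GATA5, GATA6 and ZFPM1 were higher in all 4 MSX2-/- libraries than in both WT libraries, and GATA3 and ZFPM2 overlapped.

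GATA2 had the highest mean level of the family in both groups, although GATA3 was above it in WT replicate 1. GATA2 was at 55.8 FPKM in WT replicate 1 and 59.7 FPKM in WT replicate 2. In MSX2-/- it was at 127 FPKM in 1# replicate 1, 143 FPKM in 1# replicate 2, 132 FPKM in 2# replicate 1 and 167 FPKM in 2# replicate 2. The lowest MSX2-/- library was above the highest WT library, and in each clone the second replicate was the higher one. From 57.7 ± 2.69 FPKM (SD, n = 2) to 143 ± 17.9 FPKM (SD, n = 4), the log2 fold change was 1.28 ± 0.13 (SE), with an adjusted p of 0.0152 in limma and 0.00153 with the block. The exons of GATA2 and of the antisense gene GATA2-AS1 share 0 bases in GENCODE.

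GATA1, the erythroid and megakaryocyte factor, was at 7.68 FPKM in WT replicate 1 and 8.90 FPKM in WT replicate 2. In MSX2-/- it was at 17.5 FPKM in 1# replicate 1, 19.6 FPKM in 1# replicate 2, 20.6 FPKM in 2# replicate 1 and 20.8 FPKM in 2# replicate 2. The MSX2-/- libraries lay close together and all stood above WT. The log2 fold change of GATA1 was 1.15 ± 0.14 (SE), with an adjusted p of 0.0220 in limma and 0.00261 with the block.

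The GATA2 to GATA1 ratio, the quantity that falls in a GATA switch, was 7.27 and 6.71 in WT, 7.29 and 7.33 in 1#, and 6.41 and 8.05 in 2#, in replicates 1 and 2. The groups overlapped, and the lowest and the highest ratio were both in 2#. The mean was 6.99 ± 0.397 (SD, n = 2) in WT and 7.27 ± 0.671 (SD, n = 4) in MSX2-/-, a log2 difference of 0.05 (exact permutation test, two-sided, p = 0.6, 0.6 adjusted over the 2 ratios tested, with 0.0667 the smallest p that 15 arrangements allow). Each MSX2-/- library less the WT library of its number differed by between -0.18 and 0.26 on the log2 scale, with a mean of -0.09 within replicate 1 and 0.20 within replicate 2. Since 0.0667 is the smallest p of this exact permutation test, no change of the ratio, of any size, could have passed 0.05. The ratios are therefore given as values.

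**Figure D2:**
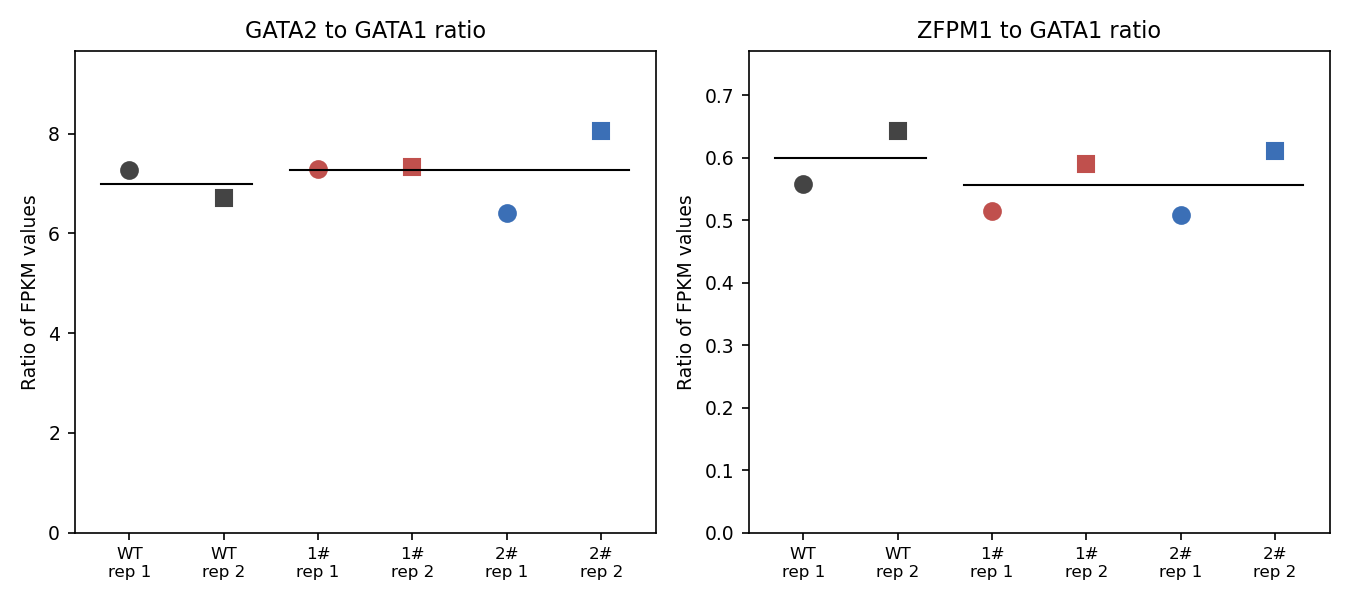
GATA2 to GATA1 ratio (left) and ZFPM1 to GATA1 ratio (right) of FPKM values on vertical axes that start at 0, in the 6 libraries, with colours, symbols and mean lines as in the plot of single genes. The GATA2 to GATA1 ratio stayed between 6.41 and 8.05 and the ZFPM1 to GATA1 ratio between 0.509 and 0.643, with WT and MSX2-/- overlapping in both.

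GATA3 was the second most abundant member in WT by mean and overlapped between the groups. It was at 58.2 and 44.7 FPKM in WT, 55.2 and 44.7 FPKM in 1#, and 50.5 and 50.3 FPKM in 2#, in replicates 1 and 2. The WT libraries spanned the range of all the others, and the second replicate was the lower one in WT and 1#. Its log2 fold change was -0.03 with a 95% interval from -0.38 to 0.33 (limma, adjusted p = 0.982, and 0.882 with the block), and the change seen for GATA2 lay outside that interval. The ratio of GATA2 to GATA3 was 0.959 and 1.33 in WT and ran from 2.30 to 3.32 in MSX2-/-.

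GATA5, known from endocardium and endoderm, was the lowest of the 8 in WT and had the largest log2 fold change among them. It was at 2.93 FPKM in WT replicate 1 and 2.18 FPKM in WT replicate 2, and at 9.17, 11.5, 11.7 and 12.1 FPKM in 1# replicate 1, 1# replicate 2, 2# replicate 1 and 2# replicate 2. All MSX2-/- libraries stood above WT, and WT replicate 2 was the lowest of all. The log2 fold change was 1.77 ± 0.18 (SE), with an adjusted p of 0.0150 in limma and 0.00268 with the block. The means, 2.55 and 11.1 FPKM, differed 4.35-fold.

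GATA4, the cardiac and endodermal factor, was at 24.2 FPKM in WT replicate 1 and 11.8 FPKM in WT replicate 2, and at 31.2 and 35.5 FPKM in 1# and 41.8 and 39.5 FPKM in 2#. The libraries of the same clone were near each other, while WT replicate 2 was at 0.487 of WT replicate 1. Against the WT library of its own number, GATA4 was 1.29-fold in 1# and 1.73-fold in 2# within replicate 1, and 3.01-fold and 3.35-fold within replicate 2. Leaving out WT replicate 2 gave GATA4 a log2 fold change of 0.58, and leaving out WT replicate 1 one of 1.56. The log2 fold change was 1.07 ± 0.28 (SE), which was not called in limma (adjusted p = 0.165) and was with the block (adjusted p = 0.0450). The difference of the effect between replicates 2 and 1, 1.03 ± 0.28 (SE) on the log2 scale, was not called (limma, adjusted p = 0.373).

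GATA6, shared by heart, endoderm and vascular cells, differed with the replicate number as well as with the genotype. It was at 19.7 FPKM in WT replicate 1 and 26.0 FPKM in WT replicate 2, at 33.2 and 66.4 FPKM in 1#, and at 33.7 and 68.5 FPKM in 2#. The clones were alike within each number, and the second replicate was higher in WT and in both clones. Its log2 fold change for MSX2-/- against WT, 1.04 ± 0.36 (SE), was not called in limma (adjusted p = 0.310), and it was with the block (1.04 ± 0.14, adjusted p = 0.00889). GATA6 was the only one of the 8 called between the replicate numbers, by a log2 of 0.79 (limma, adjusted p = 0.00719), in a comparison that called 34.6% of all rows. The effect of MSX2 loss was 0.61 larger on the log2 scale in replicate 2 than in replicate 1, which was not called (limma, adjusted p = 0.319), nor was that difference for any other member, where 0.0189% of all rows were called.

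ZFPM1, the gene of FOG1, was at 4.29 and 5.72 FPKM in WT, 8.97 and 11.5 FPKM in 1#, and 10.5 and 12.7 FPKM in 2#, in replicates 1 and 2. All MSX2-/- libraries stood above WT, and replicate 2 was the higher one in each of the 3 pairs. The log2 fold change was 0.99 ± 0.19 (SE), with an adjusted p of 0.0759 in limma, which was not called, and of 0.00479 with the block, which was. The ZFPM1 to GATA1 ratio was 0.600 ± 0.0598 (SD, n = 2) in WT and 0.556 ± 0.0520 (SD, n = 4) in MSX2-/-, a log2 difference of -0.11 (exact permutation test, two-sided, p = 0.467, adjusted 0.6). The ratio ran from 0.509 to 0.643 over all libraries and overlapped between the groups, while each MSX2-/- library was below the WT library of its own number, with log2 differences from -0.13 to -0.07. Leaving out WT replicate 1 gave a log2 difference of -0.21, and leaving out WT replicate 2 one of -0.0099.

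ZFPM2, the gene of FOG2, was at 6.64 and 7.13 FPKM in WT, 4.56 and 7.75 FPKM in 1#, and 5.68 and 7.48 FPKM in 2#, in replicates 1 and 2. The groups overlapped, with replicate 1 of both clones below and replicate 2 of both clones above WT. Its log2 fold change was -0.12 with a 95% interval from -0.66 to 0.42 (limma, adjusted p = 0.932, and 0.639 with the block). The ratio of ZFPM2 to ZFPM1 was 1.55 and 1.25 in WT and ran from 0.508 to 0.671 in MSX2-/-, so that ZFPM2 had the higher level of the pair in WT and the lower in MSX2-/-.

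**Figure D3:**
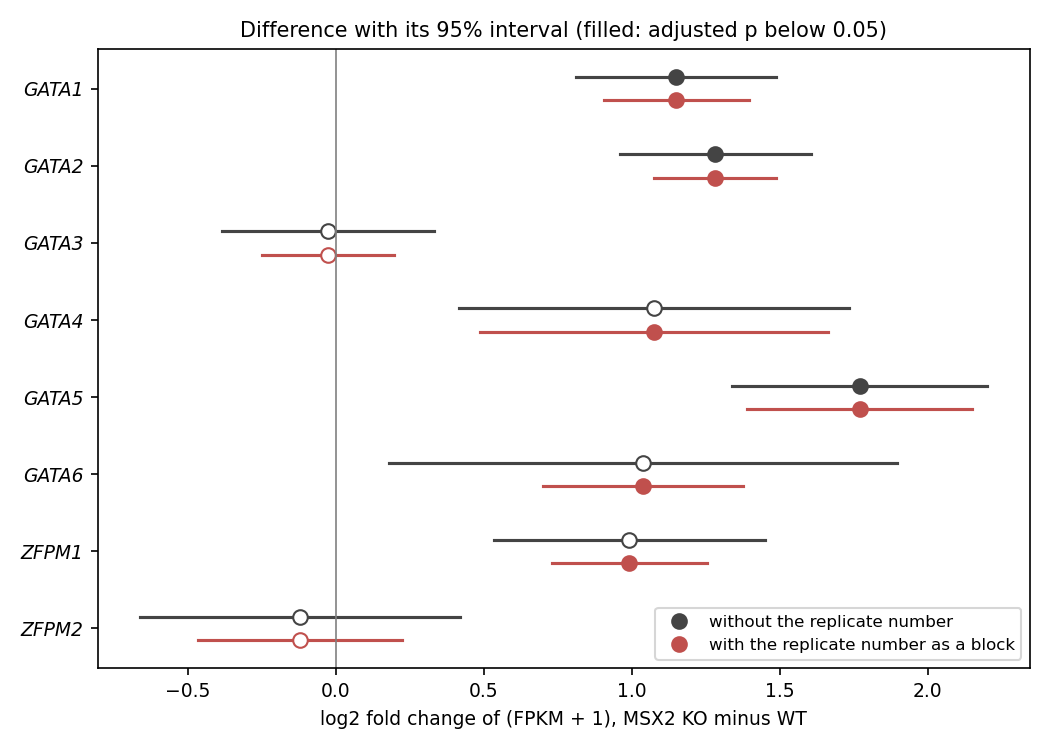
Log2 fold change of (FPKM + 1), MSX2-/- minus WT, on the horizontal axis for each GATA and FOG gene on the vertical axis, with bars for the 95% interval from limma, without (grey) and with (red) the replicate number as a block, and filled symbols where the adjusted p was below 0.05. The block left each fold change as it was, 1.04 for GATA6 for example, and narrowed its interval.

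Each clone was also compared with the same 2 WT libraries, so these comparisons share their controls. GATA1, GATA2, GATA5, GATA6 and ZFPM1 were called as higher in 1# and likewise in 2# with the block, 5 of 8 in each, where 2.29% of all rows were called as higher in 1# and 2.59% in 2#. GATA4 was not called in either with the block (limma, adjusted p = 0.148 in 1# and 0.0835 in 2#). Without the block none of the 8 was called in either clone by limma, where 0.00629% of all rows were called in each, although GATA1, GATA2, GATA4, GATA5 and ZFPM1 had an unadjusted p under 0.05 in both, as did 7.37% of all rows in 1# and 7.43% in 2#. All 8 were at a slightly higher value in 2# than in 1#, by a median log2 of 0.15, from 0.02 for GATA3 to 0.28 for GATA4, beside 56.2% of all rows above 0 and a median of 0.02, and none of these differences was called, where 0% of all rows were called; none had an unadjusted p under 0.05, and none was called with the block either.

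By group mean, GATA2 led in both groups, but the order below it differed. In WT it was followed by GATA3, GATA6, GATA4, GATA1, ZFPM2, ZFPM1 and GATA5, with GATA2 and GATA3 overlapping in range, and GATA6 and GATA4. In MSX2-/- it was followed by GATA6, GATA3, GATA4, GATA1, GATA5, ZFPM1 and ZFPM2, with GATA6 and GATA3 overlapping, and GATA5 and ZFPM1. The other neighbours did not overlap between libraries of the group, but GATA6 also overlapped GATA4 in MSX2-/-, and in replicate 1 of 2# it was below both GATA3 and GATA4.

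The FPKM of GATA1 to GATA6 summed to 161 ± 10.9 (SD, n = 2) in WT and 311 ± 37.4 (SD, n = 4) in MSX2-/-. GATA2 made up 36.0% ± 4.11 (SD, n = 2) of that sum in WT and 45.8% ± 0.929 (SD, n = 4) in MSX2-/-, and GATA3 31.9% ± 3.79 and 16.4% ± 3.0. The shares of both did not overlap between the groups. GATA1 held 5.18% and 6.34% and GATA4 11% and 12% of it, and both overlapped. GATA5 held 1.58% and 3.58% of the sum, without overlap. GATA4, GATA5 and GATA6 together had 46.9 and 40.0 FPKM in WT and 73.6 to 120 FPKM in MSX2-/-, and GATA1 and GATA2 together 63.5 and 68.5 FPKM against 145 to 188 FPKM.

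**Figure D4:**
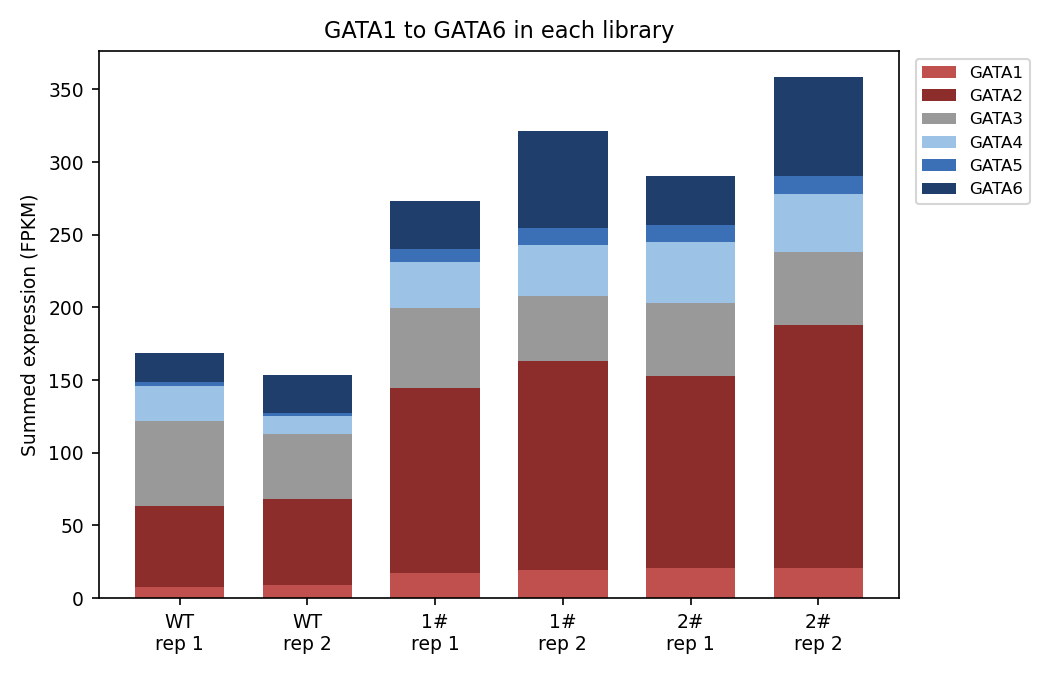
Stacked bars of the FPKM of GATA1 to GATA6 on a vertical axis that starts at 0, 1 bar for each library. The sum was 153 to 169 FPKM in WT and 273 to 359 FPKM in MSX2-/-, and the grey block of GATA3 kept its height while the others grew.

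The antisense RNAs that start beside GATA genes were set beside their neighbours. GATA2-AS1 was at 12.5 and 16.9 FPKM in WT and 26.3 to 39.2 FPKM in MSX2-/-, with a log2 fold change of 1.03 ± 0.21 (SE) (limma, adjusted p = 0.0894, and 0.00299 with the block). Its ratio to GATA2 was 0.224 and 0.284 in WT and 0.199 to 0.234 in MSX2-/-, so both RNAs stood in a similar proportion in all libraries. GATA6-AS1 was at 3.98 and 1.85 FPKM in WT and at 13.2, 14.3, 14.6 and 15.4 FPKM in 1# and 2#, with a log2 fold change of 2.03 ± 0.24 (SE) (limma, adjusted p = 0.0180, and 0.00393 with the block). The replicates of each clone were close to each other for GATA6-AS1, while GATA6 was 2.0-fold higher in replicate 2 of both, and the ratio of GATA6-AS1 to GATA6 was 0.202 and 0.0712 in WT, 0.399 and 0.433 in replicate 1 of the clones, and 0.215 and 0.224 in replicate 2. GATA6 shares 240 of its 3945 exonic bases, 6.08%, with exons of GATA6-AS1 on the other strand. It shares 321, 8.14%, with those of AC091588.3, also antisense. No source used here says whether the counting used strand, so reads of shared stretches may stand for GATA6 or for the antisense gene. GATA3-AS1, at 4.52 and 2.58 FPKM in WT and 2.42 to 4.34 FPKM in MSX2-/-, overlapped between the groups as GATA3 did.

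The genes known as targets of GATA1 in erythroid cells had a median log2 fold change of 1.03, with 13 of 16 tested above 0, beside 51.3% of all rows. In limma 5 of 16 were called as higher, KLF1, NFE2, ALAS2 and GYPB among them, where 0.963% of all rows were, and none was called as lower. With the block 7 of 16 were called as higher, where 6.11% of all rows were, with GFI1B and ICAM4 added. ALAS2, the erythroid enzyme that starts heme synthesis, went from 7.48 and 9.28 FPKM in WT to between 42.2 and 84.8 FPKM (log2 fold change 2.64, adjusted p = 0.0152), and GYPB, a glycophorin of the red cell membrane, from 15.6 and 12.6 FPKM to between 41.2 and 47.1 FPKM (1.60, adjusted p = 0.010). KLF1, an erythroid factor under GATA1 and also its partner, went from 9.78 and 12.3 FPKM to between 30.4 and 55.8 FPKM (1.85, adjusted p = 0.0394). The embryonic and fetal globins HBE1, HBZ and HBG2 were not called, with HBE1 at 36.6 and 24.4 FPKM in WT and 35.9 to 164 FPKM in MSX2-/-. EPOR, at 27.4 and 16.3 FPKM against 14.4 to 20.9 FPKM, was among the 3 below 0. AHSP, a late erythroid chaperone of globin, was listed at 0 in all libraries, and the erythroid marker genes together had 76.7 and 69.6 FPKM in WT and 204 to 397 FPKM in MSX2-/-.

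Of the megakaryocyte genes known with GATA1, 7 of 10 tested were above 0, beside 51.3% of all rows. Their median log2 fold change was 0.52, which was 0.27 with 6 of 10 above 0 when WT replicate 1 was left out and 0.70 when WT replicate 2 was. NFE2, which serves erythroid cells and megakaryocytes, was the only one called, from 11.2 and 12.2 FPKM to between 30.3 and 35.6 FPKM (log2 fold change 1.40, limma, adjusted p = 0.0110). Of all rows, 0.963% were called as higher in that fit. GFI1B and GP1BA were among those that joined NFE2 as higher with the block, where 6.11% of all rows were. VWF, at 26.7 and 31.1 FPKM against 18.2 to 19.7 FPKM, was called as lower with the block, where 3.74% of all rows were. Where the megakaryocyte markers summed to 37.2 and 56.8 FPKM in WT they summed to 57.5 to 76.6 FPKM in MSX2-/-. In bulk RNA, fewer cells of a type and less RNA per cell cannot be told apart, and the same holds for more cells and more RNA. The summed markers of blood cells, 279 and 370 FPKM against 407 to 519 FPKM, moved with the groups beside GATA1 and GATA2. ARHGDIB, at 184 and 224 FPKM in WT, was the largest part of that WT sum and was not called with or without the block. Of the 10 tested, 9 were above 0, beside 51.3% of all rows, and GFI1 alone was called, where 0.963% of all rows were called as higher. With the block 4 were called as higher and CD53 as lower, where 6.11% and 3.74% of all rows were. PTPRC, the pan-leukocyte CD45 gene, stayed under 1 FPKM and ELANE at 0 in all libraries. The part of blood cell markers in the result was not tested.

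The genes known as GATA2 targets in progenitors and endothelium were divided: 9 of 17 tested were above 0, with a median log2 fold change of 0.08. GFI1, a repressor of endothelial genes in hemogenic endothelium, went from 3.86 and 3.97 FPKM in WT to between 22.8 and 37.6 FPKM in MSX2-/- (log2 fold change 2.65, limma, adjusted p = 0.010), and EDN1, the gene of endothelin 1, from 2.53 and 2.97 FPKM to between 8.16 and 16.2 FPKM (1.72, adjusted p = 0.0385). MECOM, a stem cell factor also made by arterial endothelium, fell from 64.0 and 52.7 FPKM to between 24.1 and 29.4 FPKM (-1.06, adjusted p = 0.0292). KDR, the VEGF receptor of endothelium, was at 666 and 779 FPKM against 434 to 590 FPKM and was called as lower only with the block (adjusted p = 0.213, and 0.0112 with the block). With the block 5 of 17 were called as higher, RUNX1, TAL1, GFI1, GFI1B and EDN1, and 3 as lower, MECOM, KDR and ERG. Of all rows, 51.3% were above 0. Without the block 0.963% of them were called as higher and 0.321% as lower, and with it 6.11% and 3.74%. Of the 12 endothelial markers, 10 were below 0, and CDH5, TIE1 and CLDN5 were called as lower. ENG, at 90.9 and 91.0 FPKM in WT and 129 to 160 FPKM in MSX2-/-, and ROBO4 were above 0, and with the block 7 were called as lower and 1 as higher. Their part in the result was not tested.

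**Figure D5:**
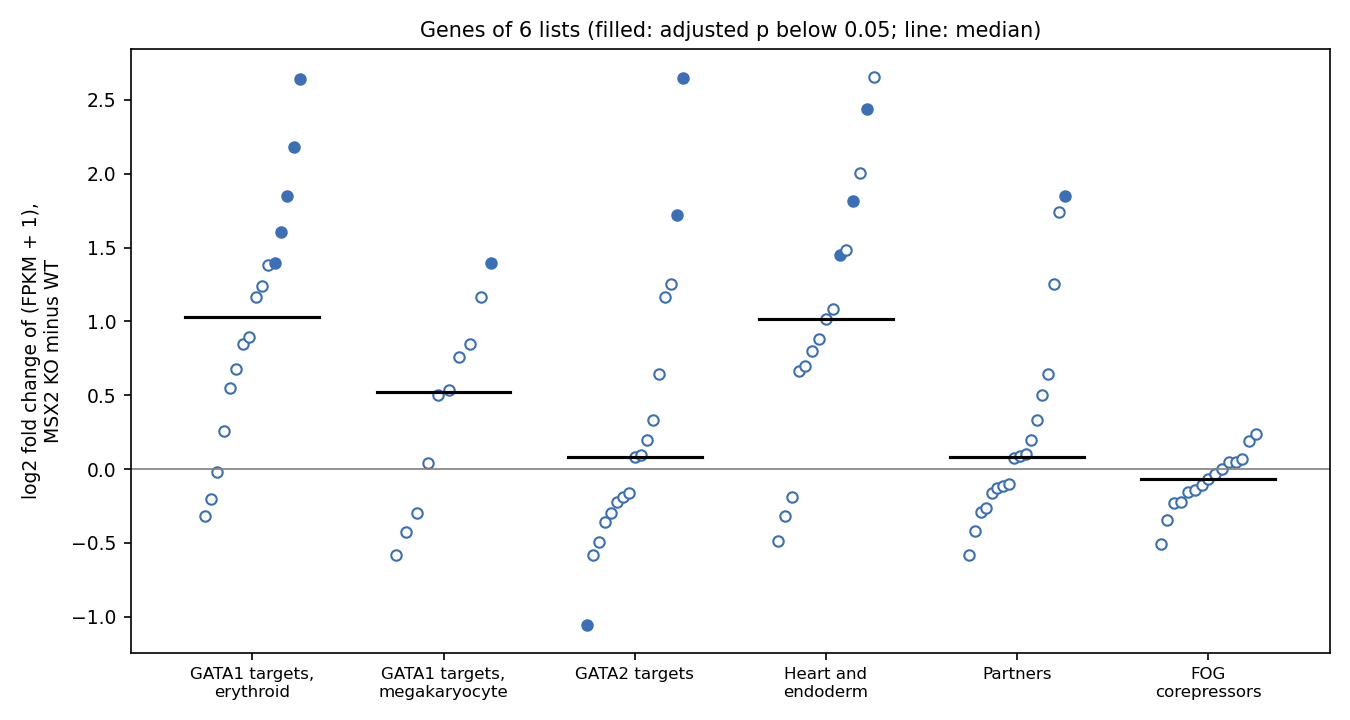
Log2 fold change of (FPKM + 1), MSX2-/- minus WT, on the vertical axis for each tested gene of 6 lists on the horizontal axis, in rising order within a list, with filled points where the adjusted p from limma was below 0.05 and a line at the median. The medians are 1.03 for erythroid GATA1 targets, 0.52 for megakaryocyte genes, 0.08 for GATA2 targets, 1.02 for heart and endoderm genes, 0.08 for partners and -0.07 for corepressors.

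The heart and endoderm genes known with GATA4, GATA5 and GATA6 had a median log2 fold change of 1.02, with 12 of 15 tested above 0, beside 51.3% of all rows. The factors TBX20, HAND1 and HAND2 were called as higher, 3 of 15 where 0.963% of all rows were, and none was called as lower. HAND2, a factor of heart and lateral mesoderm, went from 13.4 and 13.9 FPKM in WT to between 30.8 and 45.6 FPKM in MSX2-/- (log2 fold change 1.45, limma, adjusted p = 0.0208), and HAND1 from 2.32 and 1.14 FPKM to between 9.61 and 22.5 FPKM (2.44, adjusted p = 0.0382). The growth text given for every library speaks of HAND1 overexpression, so what the HAND1 level reflects cannot be told from the labels. NKX2-5, the cardiac homeobox partner of GATA4, was at 30.9 and 41.4 FPKM against 49.6 to 84.3 FPKM and was called only with the block (0.88, adjusted p = 0.234, and 0.00407 with the block). Among genes of contractile heart muscle, TNNT2 was at most at 1.21 FPKM, ACTC1 was at 2.47 and 1.57 FPKM in WT and 7.67 to 49.5 FPKM in MSX2-/-, and MYL7 at 0.415 and 0 FPKM against 2.13 to 8.94 FPKM. ACTC1 and MYL7 were called as higher only with the block (limma, adjusted p = 0.169 and 0.125, and 0.0127 and 0.0195 with the block). With it 6 of 15 genes of this list were called as higher, where 6.11% of all rows were. The liver gene ALB ran from 0 to 125 FPKM within MSX2-/- alone and was not called. Mesenchymal markers stood at 279 and 337 FPKM in WT and 500 to 574 FPKM in MSX2-/-, with 6 of 8 tested above 0, COL1A1 and TAGLN called as higher, and COL1A2 and COL3A1 below 0 and not called, and their part in the levels of GATA4, GATA5 and GATA6 was not tested.

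The partners that share complexes with GATA factors were divided as well. Among 18 genes, 10 were above 0, beside 51.3% of all rows, and the median log2 fold change was 0.08. KLF1 was the only one called, as higher, where 0.963% of all rows were. With the block 5 were called as higher, KLF1, CBFA2T3, RUNX1, TAL1 and SPI1, and 2 as lower, ERG and TCF12. Of all rows, 6.11% were called as higher and 3.74% as lower with the block. RUNX1, needed for blood to emerge from endothelium, was at 11.2 and 25.4 FPKM against 29.1 to 58.8 FPKM (log2 fold change 1.25, limma, adjusted p = 0.285, and 0.00163 with the block), and TAL1, a partner of GATA1 and GATA2 in the same complex, at 33.6 and 42.1 FPKM against 42.4 to 79.8 FPKM (0.64, adjusted p = 0.475, and 0.0253 with the block). CBFA2T3, or ETO2, a corepressor of the GATA1 complex in erythroid cells, was at 4.63 and 14.7 FPKM in WT and 23.2 to 37.4 FPKM in MSX2-/- (log2 fold change 1.74, limma, adjusted p = 0.129, and 0.00798 with the block), and LDB1, its scaffold, was at 133 and 153 FPKM against 126 to 147 FPKM. The corepressors that FOG proteins recruit, the NuRD subunits and CTBP1 and CTBP2, had a median log2 fold change of -0.07 over 15 genes, with none called. With the block, CHD3 alone was called as lower, from 73.5 and 42.3 FPKM in WT to between 27.5 and 56.2 FPKM.

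Other genes with GATA-type zinc fingers, such as TRPS1 and GATAD1, had 3 of 9 above 0, beside 51.3% of all rows. Their median log2 fold change was -0.02, and none was called with or without the block. Of the T cell and trophoblast genes known with GATA3, 4 of 7 tested were above 0, with a median of 0.27. None of them was called without the block. KRT18 was called as higher with the block, where 6.11% of all rows were, and CD3E was at most at 0.0691 FPKM. Of 12 mast cell, basophil and eosinophil genes, 10 were too low to be tested, and TPSB2 was listed at 0 in all libraries. Neither of the tested genes was called without the block, while CNRIP1 was called as lower with it, where 3.74% of all rows were. The histone genes, which end without a poly(A) tail, summed to 30.0 FPKM in both WT libraries and 70.8 to 111 FPKM in MSX2-/-, and genes of the ribosome held 14.7% and 15.7% of all FPKM in WT and 16.6% to 17.4% in MSX2-/-. Whether that difference between the groups bears on the GATA genes was not tested.

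The genes whose log2 values followed each member most closely over the 6 libraries are given as a description, since the points share genotype, replicate number and library. Pearson's r was 0.99 between GATA1 and GATA2, 0.98 between GATA1 and GATA5, 0.98 between GATA1 and ZFPM1, 0.86 between GATA2 and GATA6, and -0.17 between GATA2 and GATA3. Among 7069 other genes whose mean reached 10 FPKM, GGCT, BCR and GAS5 were nearest to GATA1, with r from 0.995 to 0.997, and RPL17, PSTPIP2 and CITED2 to GATA2. TMEM106C was nearest to GATA3, FAM162A to GATA4, ALDH1A1 to GATA5, which went from 8.77 and 7.73 FPKM in WT to between 32.9 and 38.4 FPKM in MSX2-/-, DVL3 to GATA6, NET1 to ZFPM1 and VPS4A to ZFPM2.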

How the data were processed

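RNA-seq was analysed from 1 table with a column for each of 6 libraries. Its values are FPKM, which the authors deposited without counts. The labels' processing notes name hg19 with BWA, Bowtie and RSEM, while the series text names TopHat and Cufflinks. Tool versions, the annotation and whether strand was used are not given in the sources used here. Of the symbols, 97.0% are in GENCODE release 29. Columns for MSX2-/- were assigned to that group by name, with clone and replicate number read from the name. The GATA and FOG genes and all gene lists were chosen with earlier results of these data known.

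Rows with a mean of at least 0.5 FPKM were tested on log2(FPKM + 1) with limma 3.58.1 (R 4.3.3, trend, Benjamini-Hochberg), 4 against 2 libraries. From each list, called genes and those with the largest log2 fold changes were named, with others chosen after their values were seen. Some listed genes are not reported here. Scripts were tested on simulated data. The differences of replicate 2 from replicate 1 correlated across genes between WT, 1# and 2# (r = 0.51 to 0.64), and the labels mark each number with a letter, so the numbers were taken to pair the libraries, and the fit with a replicate block is given beside the GATA and FOG genes and as counts for the main lists. With FPKM alone no counting interval was computed. Alternatives were another pseudocount, other filters, 3 groups, rescaled libraries, no trend and leaving out each library.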

Additional observations from a re-analysis of the deposited data

How the results depend on the processing

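The log2 fold changes of GATA1, GATA2, GATA4, GATA5, GATA6 and ZFPM1 kept their sign in every alternative, and it was the calls that moved. The replicate block raised the called rows from 204 to 1566, the called GATA and FOG genes from 3 to 6, and the called rows from 1 to 550 in 1# and from 1 to 590 in 2#. It left GATA3 and ZFPM2 uncalled. With WT, 1# and 2# as 3 groups, 6 rows and 0 of the 8 genes were called, and with no filter 125 rows. Among settings chosen after seeing the data, keeping also the rows at 0 in every library left 98 rows and 0 of the 8 genes, with GATA1 at an adjusted p of 0.0570, GATA2 at 0.0808 and GATA5 at 0.0527, and the block with no filter gave 507 rows and 4 of the 8. When 1 library at a time was left out, the called rows ran from 19 to 80 and the called GATA and FOG genes from 0 to 2, with fewer samples in each fit. Over the same fits the log2 fold change of GATA3 ran from -0.21 to 0.16, that of ZFPM2 from -0.21 to 0.0057, and the GATA2 to GATA1 log2 difference from -0.0039 to 0.11, against -0.088 within replicate 1 and 0.20 within replicate 2. List medians that changed sign were those of the partners (-0.13 to 0.077), other GATA-type fingers (-0.14 to 0.050), mast cell genes (-0.68 to 0.10) and T cell and trophoblast genes (-0.075 to 0.62). The corepressor median ran from -0.12 to -0.018. The cause was not tested. A pseudocount of 0.1, a mean of at least 2 FPKM, rescaled libraries and no trend left the 3 calls in place. FPKM hold no read counts, so depth sets no stated limit here.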
